A study of Homo sapiens with 9 samples.

Results

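The transcription circuit built around TAL1 was followed through 10 genes: TAL1 and its relative LYL1, the bridging proteins LMO1, LMO2 and LDB1, the E proteins TCF3 and TCF12, and the co-bound factors GATA3, RUNX1 and MYB. The members were chosen by name, and all 10 symbols were found among the 26228 rows of the deposited expression table. TAL1 and LYL1 are basic helix-loop-helix factors that bind DNA as partners of the E proteins TCF3 (E2A) and TCF12 (HEB), and an LMO protein and LDB1 join the pair to a GATA factor. In T-cell acute lymphoblastic leukaemia the complex also sits with RUNX1 and MYB at shared enhancers, and these factors are described as binding each other's genes. Jurkat cells, an established line of that leukaemia, carry a small insertion upstream of TAL1 that makes binding sites for MYB and drives the gene from a single allele.

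Polyadenylated RNA was sequenced from 9 libraries of Jurkat cells growing exponentially in complete RPMI medium. The groups were the CRISPR/Cas9-edited line EZH2-KO1 (KO1), the edited line EZH2-KO2 (KO2) and the unedited line EZH2-WT (WT), with 3 libraries each. EZH2 is the catalytic subunit of Polycomb repressive complex 2, which places the methyl mark on lysine 27 of histone H3 that keeps genes silent. The comparison asks how the circuit stood in cells edited at that gene. Each edited genotype is represented by a single line, so an effect of the edit and a property of that line cannot be told apart. The cloning of the lines, like the sites cut and the handling of WT cells, is not given in the sources used here.

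Values are FPKM, fragments scaled by transcript length and by library size, so levels of different genes can be compared per length. Read totals per library are unknown, and FPKM summed to 417737 to 439704 per library. A gene was tested when it reached 1 FPKM in at least 3 of the 9 libraries, which 11737 genes did, and a change was called at an adjusted p under 0.05 over all of them. EZH2 transcripts were present throughout, at 106 ± 2.5 FPKM in KO1, 89.5 ± 1.40 in KO2 and 77.2 ± 2.54 in WT (SD, n = 3 each), so the transcript level does not check the labels. T-cell identity was visible in every library: the 8 T-cell markers summed to 1265 to 1397 FPKM in KO1, 1459 to 1494 in KO2 and 1431 to 1530 in WT. The 6 myeloid markers summed to at most 0.601 FPKM in any library, with FCGR1A listed at 0 in all 9. Of the 6 B-cell markers, PAX5 was listed at 0 in every library and CD79A was the only tested gene, at 54.9 ± 5.52 FPKM in KO1, 21.0 ± 1.65 in KO2 and 27.5 ± 2.57 in WT.

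The circuit changed in both directions. In both edited lines MYB, LYL1 and LMO1 rose against WT, while TAL1, TCF12 and GATA3 fell, and RUNX1, TCF3 and LDB1 did not pass the test. Of the 9 tested members, 6 were called in KO1 against WT, which is 66.7%, beside 67.5% of all tested genes. LYL1, counted among the 3 rises in each line, passed the filter on low values only with the edited lines, which favoured a rise. The 3 members that rose in KO1 stand beside 35.6% of all tested genes called higher, and the 3 that fell beside 31.9% called lower. The same 6 members were called in KO2 against WT, beside 64.7% of all tested genes, made up of 38.1% higher and 26.6% lower. Of those KO2 calls 58.9% were higher, a share that was 50.8% under quantile normalization and 52.9% under median centring. The share of members called was therefore close to that of the whole transcriptome, and both edited lines were set against the same 3 WT libraries. Between the edited lines 2 of 9 members were called in KO2 against KO1, TAL1 higher and MYB lower, which is 22.2%, beside 30.6% of all tested genes, made up of 18.3% higher and 12.4% lower. Of those calls between the edited lines 59.7% were higher, a share that was 49.0% under quantile normalization and 47.9% under median centring, while TAL1 and MYB kept their calls and directions. The median log2 fold change over all tested genes was 0.02 in KO1 against WT, 0.06 in KO2 against WT and 0.04 in KO2 against KO1, and over the 9 members it was 0.04, 0.06 and -0.01 in the same order. In whole cultures, fewer cells carrying a transcript and less of it per cell cannot be told apart.

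**Figure D1:**
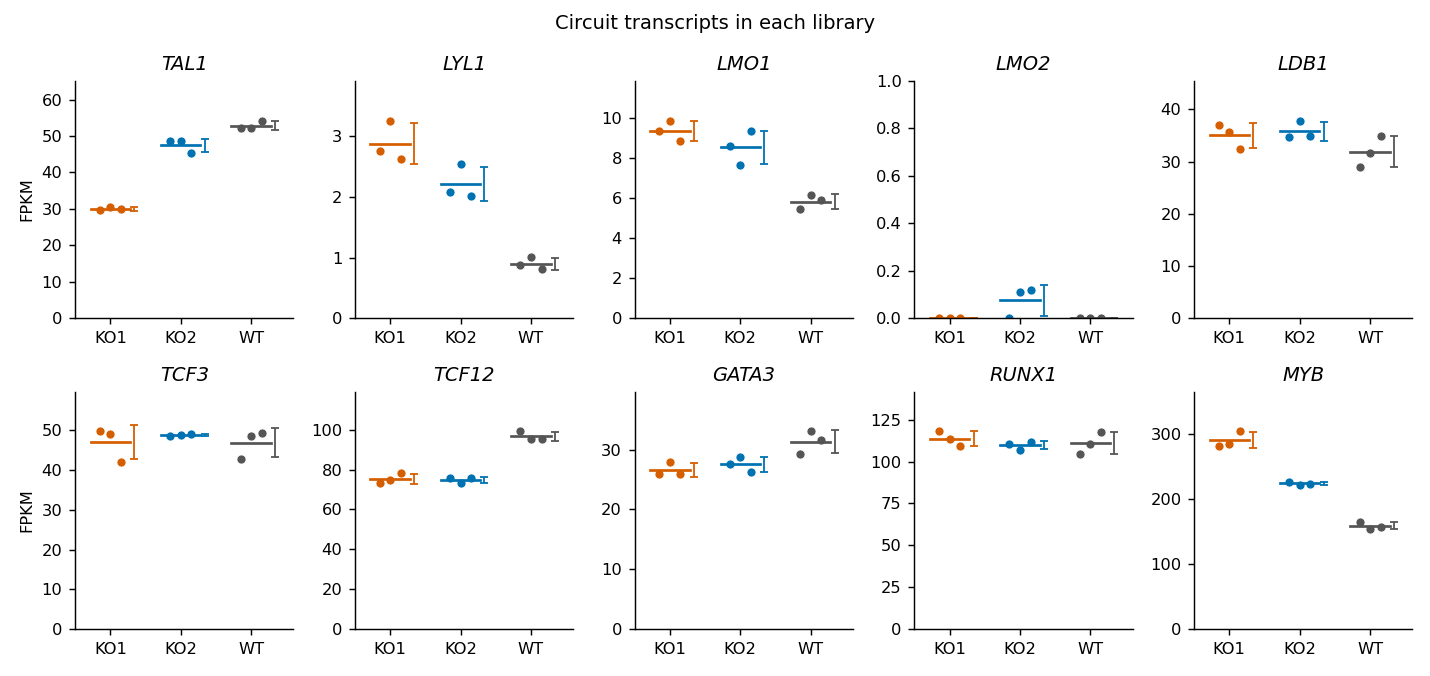
Level of each of the 10 circuit members in FPKM (linear vertical axes, 1 panel per gene) in the 3 libraries each of KO1, KO2 and WT; points are libraries, horizontal lines are means and vertical bars are SDs. TAL1 in KO1 lies between 29.6 and 30.5 FPKM, below every KO2 and WT library, and MYB is highest in KO1, intermediate in KO2 and lowest in WT.

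TAL1, the factor that names the circuit, was lower in both edited lines and much more so in KO1. Its libraries read 29.6, 30.5 and 29.9 FPKM in KO1, 48.6, 48.5 and 45.5 in KO2, and 52.1, 52.3 and 54.2 in WT. The 3 groups did not overlap, and KO1 stood well apart from the other 2 groups. TAL1 fell by 0.80 on the log2 scale in KO1 against WT (SE 0.04, adjusted p = 4.4e-08) and by 0.15 in KO2 against WT (SE 0.04, adjusted p = 0.0075). The difference between the edited lines was itself called, at a log2 fold change of 0.65 in KO2 against KO1 (95% confidence interval 0.56 to 0.74, adjusted p = 2.3e-06). Log2 fold changes here and below are differences of log2(FPKM + 1), which understate the change of genes at a few FPKM.

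RefSeq lists 2 starts for TAL1, and the gene-level FPKM value merges transcripts from both. The 250 bases before each start are given because TAL1 is the member that separates the edited lines most, with capitals marking matches to 4 motifs of the circuit's own factors, searched on both strands: the E-box CAGNTG, the GATA motif AGATAA or TGATAA, the RUNX motif TGTGGT, and the MYB motif TAACNG or CAACNG. None of the capitals belongs to more than 1 motif. Coordinates are those of GRCh38.p14, while the expression values were made on hg19.
TAL1 upstream start, chr1:47232336-47232585, minus strand: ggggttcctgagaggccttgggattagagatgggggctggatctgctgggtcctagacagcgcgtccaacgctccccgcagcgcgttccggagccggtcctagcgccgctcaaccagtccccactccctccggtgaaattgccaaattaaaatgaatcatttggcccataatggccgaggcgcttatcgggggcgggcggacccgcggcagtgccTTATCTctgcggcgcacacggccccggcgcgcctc
TAL1 downstream start, chr1:47231716-47231965, minus strand: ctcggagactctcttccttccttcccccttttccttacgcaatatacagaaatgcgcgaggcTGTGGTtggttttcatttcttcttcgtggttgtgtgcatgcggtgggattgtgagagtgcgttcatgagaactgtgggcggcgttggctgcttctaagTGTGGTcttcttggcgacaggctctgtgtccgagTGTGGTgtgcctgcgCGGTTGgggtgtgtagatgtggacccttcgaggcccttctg
The upstream window held 1 GATA match and 24 CpG dinucleotides. The window before the downstream start held 3 RUNX matches, 1 MYB match and 14 CpG. Among 35116 RefSeq windows of the same length, 42.5% held an E-box, 14.6% a GATA match, 10.98% a RUNX match and 39.3% a MYB match, and the median was 11 CpG. A match describes letters and not a bound site, and the leukaemic insertion of Jurkat cells is not part of the RefSeq genome.

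The genes beside TAL1 moved in different ways. STIL, the centriole assembly gene directly upstream of TAL1 that is fused to it in some leukaemias, averaged 29.7 ± 1.64 FPKM in KO1, 28.3 ± 1.13 in KO2 and 35.6 ± 0.238 in WT. It fell by 0.26 in KO1 and by 0.32 in KO2 on the log2 scale (adjusted p = 0.00087 and 0.00020), beside 0.80 and 0.15 for TAL1. CMPK1, which makes pyrimidine nucleotides, was at 63.2 ± 5.84 FPKM in KO1, 79.1 ± 3.07 in KO2 and 66.6 ± 4.18 in WT, and rose in KO2 (log2 fold change 0.25, adjusted p = 0.0087) but did not pass in KO1 (-0.07, adjusted p = 0.35), with a called difference of 0.32 in KO2 against KO1 (adjusted p = 0.0053). On the other side EFCAB14 fell by 0.48 in KO1 and by 0.21 in KO2 on the log2 scale. The other 7 of the 9 genes listed around TAL1 were not tested, all under 1 FPKM, including PDZK1IP1, which stands at 0.222 FPKM in 1 KO1 library and 0.223 in 1 WT library and is listed at 0 in the rest.

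LYL1, which can take the place of TAL1 beside E proteins and drives its own class of leukaemia, moved the opposite way from a very low base. It read 2.75, 3.26 and 2.64 FPKM in KO1, 2.09, 2.54 and 2.02 in KO2, and 0.872, 1.01 and 0.805 in WT. Every edited library stood above every WT library. LYL1 rose by 1.03 on the log2 scale in KO1 (SE 0.10, adjusted p = 4.1e-06) and by 0.76 in KO2 (SE 0.10, adjusted p = 4.9e-05). It passed the filter on low values through the edited lines, since only 1 WT library reached 1 FPKM. KO2 was lower than KO1 in all libraries, but the difference of -0.27 had an adjusted p of 0.054 and was called under some other settings, with adjusted p = 0.038 when KO2 replicate 2 was left out. TAL1 stayed the more abundant of the pair throughout: the ratio of TAL1 to LYL1 was 10.5 ± 1.03 in KO1, 21.6 ± 2.21 in KO2 and 59.7 ± 7.71 in WT. The sum of both genes was 32.9 ± 0.767 FPKM in KO1, 49.7 ± 1.96 in KO2 and 53.8 ± 1.11 in WT.

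Among the bridging proteins, LMO1 rose and LMO2 was nearly silent. LMO1, a LIM-only protein that is a leukaemia oncogene in T cells, read 9.37, 9.88 and 8.86 FPKM in KO1, 8.59, 7.67 and 9.36 in KO2, and 5.44, 6.15 and 5.89 in WT. Both edited lines lay above WT with no overlap, and they overlapped each other. The log2 fold change was 0.60 in KO1 (SE 0.08, adjusted p = 4.7e-05) and 0.48 in KO2 (SE 0.08, adjusted p = 0.00029), and KO2 against KO1 differed by -0.12 (95% confidence interval -0.29 to 0.05). LMO2, the other leukaemic LIM-only protein, was listed at 0 in all KO1 and WT libraries and at 0, 0.109 and 0.118 FPKM in KO2, and did not reach the filter. LMO1 was thus the LIM-only member of the circuit that could be tested. The window before its RefSeq start, shown as that of a member that rose in both lines, held 1 MYB match in capitals and 5 CpG.
LMO1, chr11:8268788-8269037, minus strand: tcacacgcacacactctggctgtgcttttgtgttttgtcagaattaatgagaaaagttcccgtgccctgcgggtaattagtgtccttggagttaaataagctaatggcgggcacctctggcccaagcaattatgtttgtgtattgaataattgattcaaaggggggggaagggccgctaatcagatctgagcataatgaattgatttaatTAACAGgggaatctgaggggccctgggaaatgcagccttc

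LDB1, the scaffold that holds the LMO protein and lets distant complexes pair, was near 35 FPKM in the edited lines. It read 36.9, 35.7 and 32.4 FPKM in KO1, 34.7, 37.9 and 34.9 in KO2, and 29.0, 31.8 and 34.9 in WT. Its groups overlapped through the WT library at 34.9 FPKM. The log2 fold change was 0.13 in KO1 (adjusted p = 0.12) and 0.17 in KO2 (adjusted p = 0.064), so neither was called. That outcome rests on single libraries: without WT replicate 3 the values were 0.20 in KO1 (adjusted p = 0.030) and 0.23 in KO2 (adjusted p = 0.017), and without KO1 replicate 3 they were 0.19 (adjusted p = 0.047) and 0.17 (adjusted p = 0.048).

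The 2 E proteins of the circuit parted. TCF12 read 73.2, 74.7 and 78.3 FPKM in KO1, 75.7, 73.1 and 75.7 in KO2, and 99.3, 95.3 and 95.5 in WT. The edited libraries overlapped each other and all lay below WT. TCF12 fell by 0.36 on the log2 scale in each edited line (SE 0.04, adjusted p = 1.3e-05 in both), and KO2 against KO1 differed by -0.01 (95% confidence interval -0.09 to 0.08). TCF3 read 49.8, 49.2 and 42.1 FPKM in KO1, 48.7, 49.0 and 49.0 in KO2, and 42.7, 48.7 and 49.4 in WT. Its groups overlapped, with a low library in KO1 and another in WT. The log2 fold change of TCF3 was 0.00 in KO1 (95% confidence interval -0.15 to 0.16) and 0.06 in KO2 (95% confidence interval -0.10 to 0.22). The ratio of TCF3 to TCF12 was 0.626 ± 0.0767 in KO1, 0.653 ± 0.0143 in KO2 and 0.486 ± 0.0486 in WT, and the 2 genes together made 122 ± 1.78 FPKM in KO1, 124 ± 1.43 in KO2 and 144 ± 1.54 in WT.

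MYB, the factor that binds the inserted enhancer of TAL1 in these cells, had the highest level of the circuit and rose in both lines. It read 282, 285 and 304 FPKM in KO1, 226, 222 and 223 in KO2, and 164, 154 and 156 in WT. The 3 groups were fully separate, in the order KO1, KO2, WT. MYB rose by 0.87 on the log2 scale in KO1 (SE 0.04, adjusted p = 1.8e-08) and by 0.50 in KO2 (SE 0.04, adjusted p = 1.5e-06), and KO2 was lower than KO1 by a called difference of -0.37 (95% confidence interval -0.46 to -0.29, adjusted p = 6.6e-05). MYB and TAL1 moved apart, with MYB at 9.66 ± 0.424 times the FPKM of TAL1 in KO1, 4.71 ± 0.179 times in KO2 and 2.99 ± 0.142 times in WT. The MYB window, shown for comparison with those of TAL1, held no match to the 4 motifs and 34 CpG, more than 93.2% of RefSeq windows.
MYB, chr6:135181058-135181307, plus strand: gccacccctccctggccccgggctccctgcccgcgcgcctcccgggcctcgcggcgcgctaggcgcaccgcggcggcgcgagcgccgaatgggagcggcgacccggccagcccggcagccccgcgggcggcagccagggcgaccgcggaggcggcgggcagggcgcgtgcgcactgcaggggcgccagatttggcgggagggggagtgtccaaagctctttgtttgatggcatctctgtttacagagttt

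GATA3, the GATA factor of T cells and of this complex, was slightly lower in both lines. It read 25.86, 27.99 and 25.95 FPKM in KO1, 27.6, 28.8 and 26.3 in KO2, and 29.2, 33.1 and 31.7 in WT. The edited lines overlapped each other and lay below WT, with the highest KO2 library close to the lowest WT library. GATA3 fell by 0.23 on the log2 scale in KO1 (SE 0.06, adjusted p = 0.0048) and by 0.18 in KO2 (SE 0.06, adjusted p = 0.019). The KO2 call disappeared on leaving out WT replicate 2 (log2 fold change -0.14, adjusted p = 0.076), WT replicate 3 (-0.17, adjusted p = 0.052) or KO2 replicate 3 (-0.15, adjusted p = 0.076). RUNX1, which co-binds with the complex, read 118, 113 and 109 FPKM in KO1, 110, 107 and 112 in KO2, and 104, 111 and 118 in WT. The RUNX1 groups lay within each other, with a log2 fold change of 0.04 in KO1 (95% confidence interval -0.07 to 0.14) and -0.01 in KO2 (95% confidence interval -0.12 to 0.09).

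**Figure D2:**
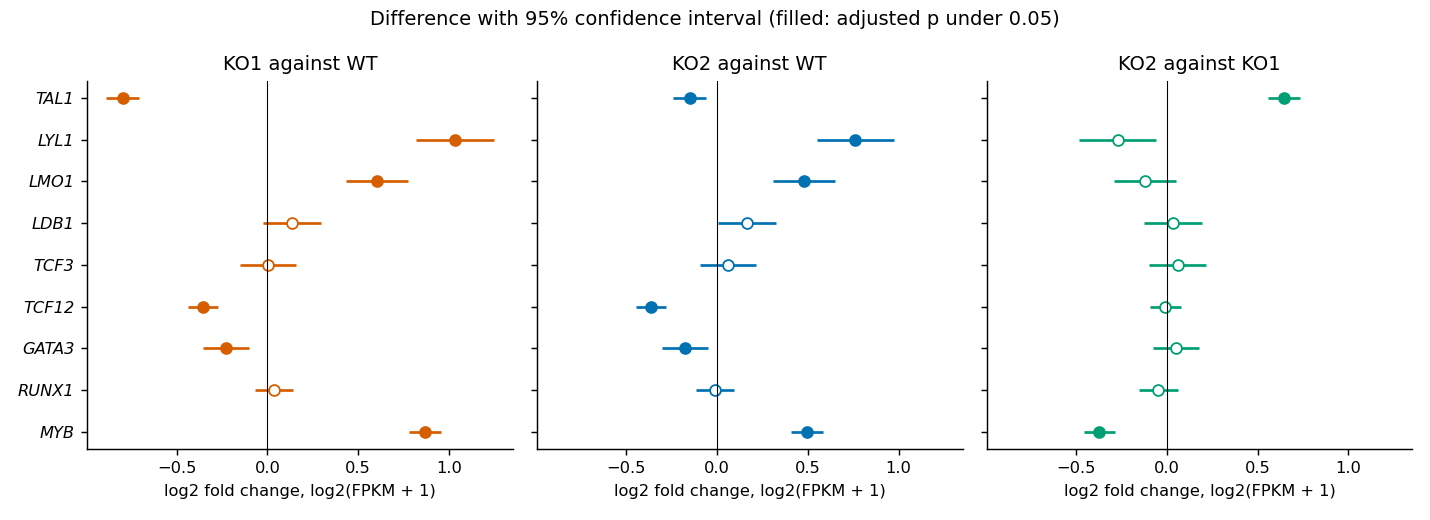
Log2 fold change on the log2(FPKM + 1) scale of the 9 tested members in KO1 against WT, KO2 against WT and KO2 against KO1, with 95% confidence intervals as horizontal lines and filled points at an adjusted p under 0.05 (n = 3 libraries per group). TAL1 is at -0.80 in KO1 and -0.15 in KO2, while TCF12 is at -0.36 in each line.

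The order of the members changed mainly through TAL1. In WT the order of mean FPKM was MYB, RUNX1, TCF12, TAL1, TCF3, LDB1, GATA3, LMO1, LYL1 and LMO2, and among neighbours in that order only LDB1 and GATA3 overlapped over libraries. In KO2 TAL1 stood just under TCF3 (47.5 against 48.9 FPKM on average) and above LDB1, with no overlap between neighbours. The highest TAL1 library of KO2, at 48.6 FPKM, nearly met the lowest TCF3 library, at 48.7 FPKM. In KO1 TAL1 stood below both TCF3 and LDB1, at 30.0 FPKM, just above GATA3 at 26.6 FPKM, again with no overlap between neighbours. MYB exceeded 98.4% of tested genes in KO1, 97.8% in KO2 and 96.6% in WT, while LYL1 exceeded 16.4% in KO1, 12.3% in KO2 and 5.15% in WT.

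Among paralogues of the members, LMO4, TCF4, RUNX2 and MYBL2 were higher in both lines. Of 11 listed, 7 were tested, among them GATA2, which passed the filter through the edited lines. Of the other 6, KO1 had 4 higher and 1 lower and KO2 had 4 higher and none lower, beside 67.5% of all tested genes called in KO1 and 64.7% in KO2. LMO4, a LIM-only protein that also binds LDB1, was at 12.002 ± 0.657 FPKM in KO1, 11.5 ± 0.788 in KO2 and 4.87 ± 0.0355 in WT, and rose by 1.15 and 1.09 on the log2 scale in KO1 and KO2 (adjusted p = 8.0e-08 and 1.8e-07). LMO4 exceeded LMO1 in the edited lines but not in WT, with ratios of LMO4 to LMO1 of 1.28 ± 0.117 in KO1, 1.36 ± 0.217 in KO2 and 0.839 ± 0.0575 in WT. GATA2, the GATA factor of blood stem and progenitor cells, read 2.34, 2.80 and 2.40 FPKM in KO1, 1.202, 0.992 and 1.07 in KO2, and 0.637, 0.559 and 0.433 in WT. No group overlapped another, GATA2 was under 1 FPKM in all WT libraries, and it remained far below GATA3, whose level was 10.6 ± 0.549 times that of GATA2 in KO1, 25.5 ± 3.15 times in KO2 and 59.4 ± 13.6 times in WT. Its log2 fold change was 1.19 in KO1 (adjusted p = 9.8e-07) and 0.44 in KO2 (adjusted p = 0.0017), and the KO2 call was lost under quantile normalization (0.09, adjusted p = 0.45). TCF4, the remaining E protein, was at 4.81 ± 0.364 FPKM in KO1, 4.83 ± 0.210 in KO2 and 3.10 ± 0.213 in WT, a rise of 0.50 and 0.51 on the log2 scale. RUNX2, a paralogue of RUNX1, rose by 0.71 in KO2 (adjusted p = 3.1e-05) and by 0.28 in KO1 (adjusted p = 0.013), a KO1 call that disappeared on leaving out WT replicate 2 or KO1 replicate 2 (adjusted p of 0.055 to 0.057). MYBL2, a relative of MYB, rose by 0.18 in KO1 and by 0.14 in KO2, a KO2 call that was lost under median centring (adjusted p = 0.062). TAL2, LMO3, GATA1 and LDB2 stayed under 1 FPKM in every library and were not tested.

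Genes of proteins that bind the complex were called in both directions. All 17 listed partners and corepressors were tested, with 8 rises and 5 falls for KO1 and 7 rises and 4 falls for KO2, and median log2 fold changes of 0.10 and 0.02. The called shares of 76.5% and 64.7% lay near the 67.5% and 64.7% of all tested genes. CBFA2T3 (ETO2), a corepressor recruited to TAL1 complexes, was at 42.8 ± 0.631 FPKM in KO1, 48.1 ± 1.34 in KO2 and 21.6 ± 0.479 in WT and rose by 0.95 and 1.12 on the log2 scale in KO1 and KO2 (adjusted p = 1.0e-08 and 5.9e-09). SSBP3, which protects LDB1 from degradation, rose by 0.75 in KO1 and 0.76 in KO2, reaching 60.9 ± 0.769 and 61.0 ± 1.54 FPKM, against 35.8 ± 2.56 in WT. CREBBP, a coactivating acetyltransferase, rose by 0.43 in KO1 and 0.47 in KO2. KAT2B, another acetyltransferase, which acetylates TAL1, fell by 0.81 in KO1 and by 1.06 in KO2 on the log2 scale, at 3.36 ± 0.167 FPKM in KO1, 2.68 ± 0.585 in KO2 and 6.63 ± 0.314 in WT. KDM1A, the histone demethylase of the corepressor complex, and EP300 did not pass in any contrast, at 149 ± 7.06, 142 ± 1.34 and 141 ± 7.69 FPKM for KDM1A and 21.5 ± 1.33, 21.3 ± 0.752 and 22.2 ± 2.33 FPKM for EP300 in KO1, KO2 and WT. Without WT replicate 1, KDM1A was called higher in KO1 against WT (0.13, adjusted p = 0.020).

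ID proteins bind E proteins without binding DNA and so take them out of use, and their transcripts rose in both lines. Of 4 listed, 3 were tested, and ID4 was not. ID1 passed the filter on low values only with the edited lines, since 2 WT libraries reached 1 FPKM, which favoured a rise. ID2 and ID3 rose in KO1 and in KO2, beside 35.6% and 38.1% of all tested genes called higher. With ID1, which also rose in both, the medians were 1.51 and 1.24 on the log2 scale. ID1 read 14.5, 16.0 and 13.2 FPKM in KO1, 7.82, 9.48 and 9.36 in KO2, and 0.992, 1.18 and 1.18 in WT, with the 3 groups fully separate. ID3 was the most abundant, at 31.2 ± 2.47 FPKM in KO1, 25.8 ± 2.0 in KO2 and 10.3 ± 1.17 in WT. ID2 was at 3.69 ± 0.641 FPKM in KO1, 2.89 ± 0.466 in KO2 and 1.87 ± 0.288 in WT. The log2 fold changes in KO1 and KO2 were 2.88 and 2.22 for ID1 (adjusted p = 1.5e-09 and 1.6e-08), 1.51 and 1.24 for ID3 (adjusted p = 1.0e-07 and 6.1e-07), and 0.70 and 0.44 for ID2 (adjusted p = 0.00049 and 0.010). The KO2 call of ID2 was lost under quantile normalization (adjusted p = 0.061). ID1 was lower in KO2 than in KO1 by a called -0.66 (adjusted p = 0.00039). The same difference for ID3 was -0.27 (adjusted p = 0.040) and lost its call on leaving out any of replicates 1 and 2 of KO2, replicates 2 and 3 of KO1, or replicate 3 of WT, among other settings, with adjusted p of 0.052 to 0.13. The sum of ID1, ID2 and ID3 was 49.4 ± 3.71 FPKM in KO1, 37.5 ± 2.11 in KO2 and 13.3 ± 1.37 in WT. That was 38.8 ± 2.63% of the summed E proteins TCF3, TCF12 and TCF4 in KO1, 29.2 ± 1.54% in KO2 and 9.09 ± 0.978% in WT, and no sum or ratio was tested.

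**Figure D3:**
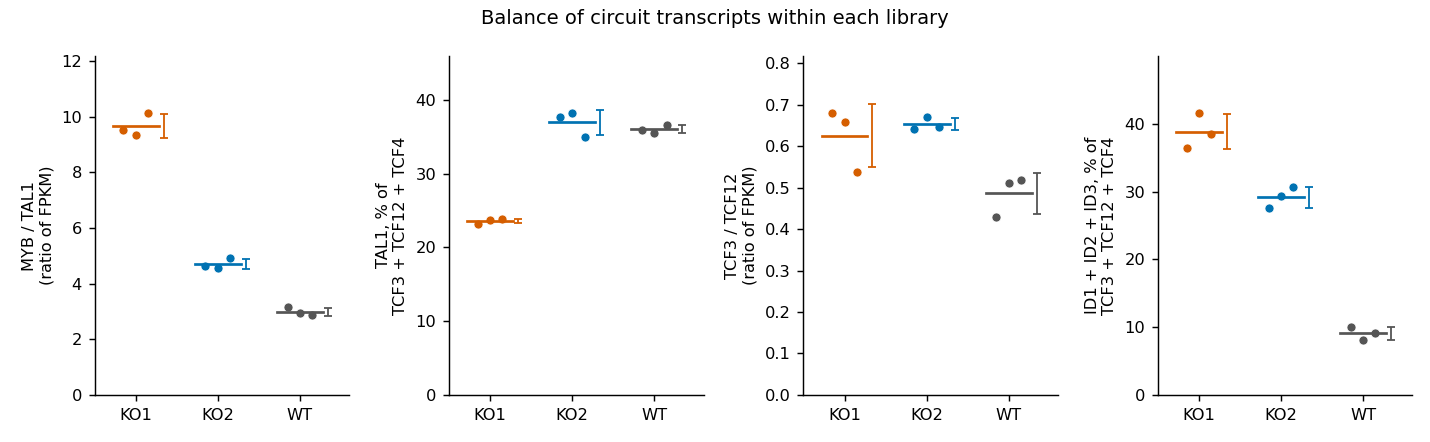
Ratios of FPKM within each library (linear axes) in KO1, KO2 and WT: MYB over TAL1, TAL1 as a percentage of summed E proteins, TCF3 over TCF12, and summed ID1, ID2 and ID3 as a percentage of summed E proteins; points are libraries, horizontal lines means and vertical bars SDs. The FPKM of TAL1 equals 23.6 ± 0.321% of the E protein sum in KO1, 37.0 ± 1.71% in KO2 and 36.0 ± 0.539% in WT, a ratio that was lower in KO1 than in the other groups.

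Genes that E proteins switch on in developing T cells were lower in both lines. Of 6 listed, CDKN1A was not tested, and PTCRA passed the filter through WT alone. The other 4 all fell in KO1 and in KO2, beside 31.9% and 26.6% of all tested genes called lower. DNTT, the polymerase that adds bases to antigen receptor joins, read 4.21, 3.47 and 3.16 FPKM in KO1, 4.48, 5.31 and 4.79 in KO2, and 142, 134 and 129 in WT. Edited and WT libraries were far apart, and DNTT had log2 fold changes of -4.89 in KO1 and -4.54 in KO2 (adjusted p = 3.2e-11 and 1.3e-10). CD4, the T-cell coreceptor, was at 2.81 ± 0.383 FPKM in KO1, 1.10 ± 0.135 in KO2 and 12.7 ± 1.49 in WT. Both lines also had little transcript of the pre-T-cell receptor gene. PTCRA, the invariant chain of the pre-T-cell receptor, was at 0.0898 ± 0.0899 FPKM in KO1, 0.4 ± 0.187 in KO2 and 1.78 ± 0.440 in WT, under 1 FPKM in every edited library. The recombinase gene RAG1 was at 2.13 ± 0.274 FPKM in KO1, 1.34 ± 0.190 in KO2 and 3.56 ± 0.114 in WT. Its partner RAG2 was at 4.91 ± 0.272 FPKM in KO1, 3.16 ± 0.757 in KO2 and 6.94 ± 0.839 in WT, and its KO1 call disappeared on leaving out WT replicate 2 (adjusted p = 0.051). The log2 fold changes in KO1 and KO2 were -1.84 and -2.70 for CD4, -1.34 and -0.99 for PTCRA (a direction that its filter fixed), -0.54 and -0.97 for RAG1, and -0.42 and -0.94 for RAG2. With a filter at 5 FPKM the tested genes of this list were 3 (DNTT, CD4 and RAG2), and all 3 fell in both lines. All 3 met that filter only with the WT libraries, which favoured a fall, so this setting adds no support for the direction.

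Genes reported as activated by TAL1 in this leukaemia moved both ways. Of 16 listed, 15 were tested. KO1 had 5 rises and 8 falls and KO2 6 rises and 8 falls among them, with median log2 fold changes of -0.12 and -0.25. The called shares were 86.7% in KO1 and 93.3% in KO2, beside 67.5% and 64.7% of all tested genes. In KO2 against KO1, 6 were higher and 5 lower, or 73.3% called, beside 30.6% of all tested genes. The genes that fell included GIMAP2, a lymphocyte GTPase, at 9.98 ± 0.356 FPKM in KO1, 15.9 ± 2.35 in KO2 and 44.2 ± 1.30 in WT. ALDH1A2, an enzyme that makes retinoic acid and is encoded close to TCF12, was at 50.1 ± 3.45 FPKM in KO1, 48.1 ± 0.698 in KO2 and 110 ± 5.90 in WT. It did not pass in KO2 against KO1 (-0.05, adjusted p = 0.50). The genes that rose included KIT, the receptor for stem cell factor, at 11.7 ± 0.664 FPKM in KO1, 5.82 ± 0.655 in KO2 and 1.61 ± 0.289 in WT. TRIB2, a pseudokinase, was at 20.6 ± 0.604 FPKM in KO1, 27.2 ± 1.98 in KO2 and 9.72 ± 0.411 in WT. The log2 fold changes in KO1 and KO2 were -2.04 and -1.43 for GIMAP2, -1.13 and -1.18 for ALDH1A2, 2.29 and 1.39 for KIT, and 1.01 and 1.39 for TRIB2, all at an adjusted p of 6.3e-07 or less. MYB itself is on this list, so 1 of the rises is that of a circuit member. Several listed genes are GIMAP genes of a single family, so the counts are not all of unrelated genes.

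Genes reported as activated by MYB split in the same way, with 3 rises and 4 falls among 8 tested in each line and medians of -0.11 and -0.03. That is 87.5% called in each line, beside 67.5% and 64.7% of all tested genes. MYC, a growth-promoting transcription factor, was at 141 ± 4.32 FPKM in KO1, 144 ± 5.33 in KO2 and 71.1 ± 3.65 in WT. BCL2, which blocks apoptosis, was at 16.1 ± 0.173 FPKM in KO1, 15.7 ± 0.325 in KO2 and 6.83 ± 0.515 in WT. For these 2 genes KO2 and KO1 differed by 0.04 (95% confidence interval -0.07 to 0.14) and -0.03 (95% confidence interval -0.16 to 0.10) on the log2 scale. Of the 8 tested genes, 2 were higher and 2 lower in KO2 against KO1, or 50% called, beside 30.6% of all tested genes. ADA, an enzyme of purine breakdown, fell to 356 ± 12.7 FPKM in KO1 and 367 ± 3.45 in KO2, against 447 ± 18.4 in WT. KIT is on this list too, with a called difference of -0.90 in KO2 against KO1 (adjusted p = 7.7e-05). TAL1 and GATA3, which fell against WT, are on the list as circuit members.

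**Figure D4:**
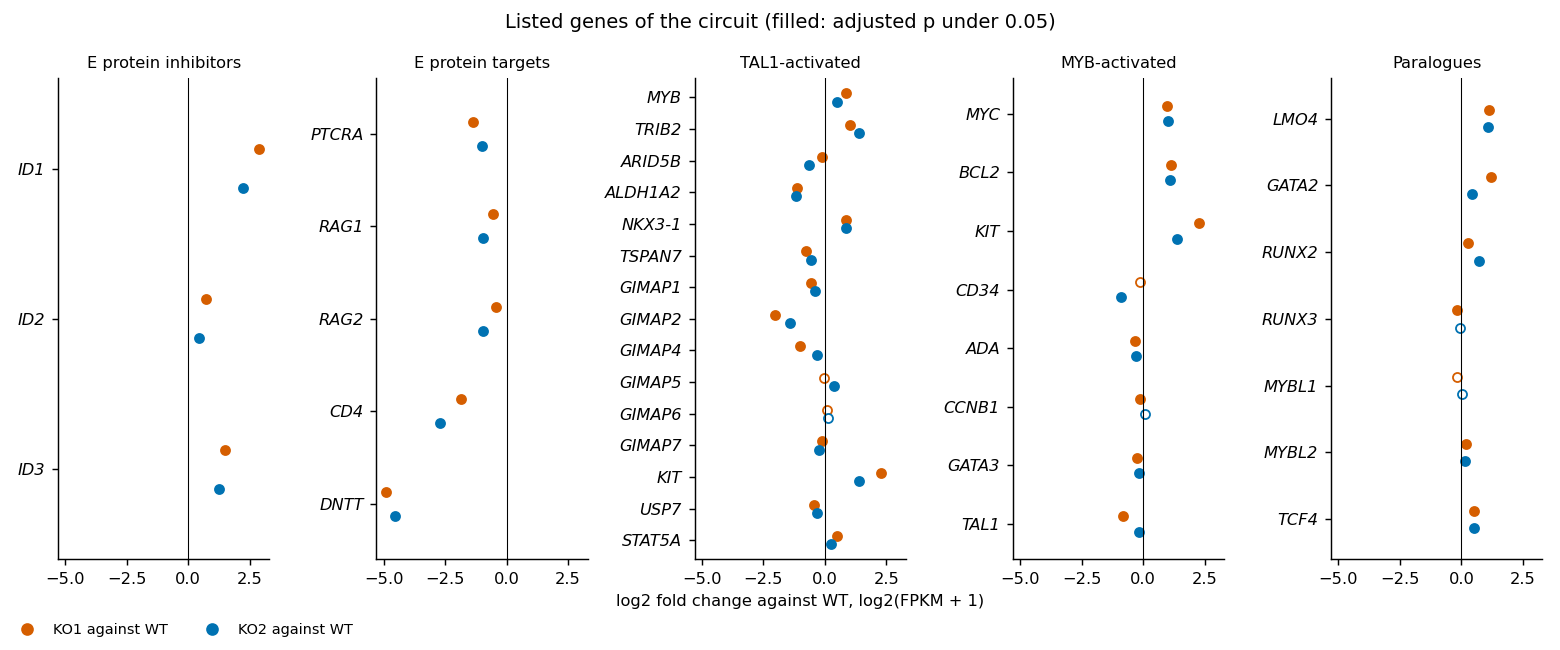
Log2 fold change against WT on the log2(FPKM + 1) scale of each tested gene of 5 lists, in KO1 and in KO2, with filled points at an adjusted p under 0.05 (n = 3 libraries per group). All 3 ID genes, of which ID1 passed the filter only with the edited lines, lie above 0 in both lines. All 5 E protein targets, of which PTCRA passed the filter through WT alone, lie below 0 in both lines. The TAL1-activated and MYB-activated genes lie on both sides.

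Most tested genes that mark leukaemias with active LMO2 or LYL1 passed the filter on low values only with edited libraries, which favoured a rise. LMO2 itself was listed at or near 0. Of 10 listed, 8 were tested, of which 7 were higher and none lower in KO1, and 5 were higher and 2 lower in KO2. Of these 8, 4 were under 1 FPKM in all WT libraries, namely HHEX, GATA2, NFE2 and MEF2C, so they passed the filter through the edited lines and the counts cannot be read as a share of the list. LYL1 and ERG also passed only with edited libraries, since 1 WT library reached 1 FPKM for LYL1 and 2 for ERG. LYL1 is itself among the 8, so 1 of the rises in each line is that of a circuit member, and KIT is counted again here. HHEX, a homeobox factor, was at 4.65 ± 0.655 FPKM in KO1, 1.53 ± 0.242 in KO2 and 0.176 ± 0.0647 in WT. NFE2, a factor of platelet and red cell precursors, was at 3.01 ± 0.493 FPKM in KO1, 3.97 ± 0.459 in KO2 and 0.224 ± 0.0868 in WT. Other listed genes differed between the edited lines, and of these ERG and MEF2C passed the filter only with KO1 libraries. ERG, an ETS factor, was at 1.76 ± 0.148 FPKM in KO1, 0.449 ± 0.193 in KO2 and 1.08 ± 0.129 in WT, a log2 fold change of 0.41 in KO1 and -0.53 in KO2, of which the KO1 call was lost under quantile normalization. CD34, a stem cell surface protein, was at 1.22 ± 0.0938 FPKM in KO1, 0.291 ± 0.0744 in KO2 and 1.41 ± 0.192 in WT, and was called in KO2 (-0.90) but did not pass in KO1 (-0.11). MEF2C, a MADS-box factor, read 1.78, 2.68 and 2.47 FPKM in KO1, 0.0153, 0.0249 and 0 in KO2, and was listed at 0 in all WT libraries. Red cell and platelet precursors are where TAL1 normally acts, and of 12 genes of those lineages only NFE2 and EPOR were tested. EPOR, the erythropoietin receptor, was at 2.21 ± 0.283 FPKM in KO1, 2.201 ± 0.325 in KO2 and 3.83 ± 0.607 in WT, a fall of 0.58 and 0.59 on the log2 scale in KO1 and KO2. The other 10 were not tested, and 4 of them were listed at 0 in every library.

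Of the 8 T-cell markers, KO1 had 3 higher and 5 lower, and KO2 had 3 of each, or 100% and 75% called beside 67.5% and 64.7% of all tested genes. CD2, an adhesion receptor, was at 90.6 ± 3.59 FPKM in KO1, 4.38 ± 0.789 in KO2 and 35.8 ± 0.774 in WT, so it lay on opposite sides of WT in the edited lines. CD5, a brake on receptor signalling, was at 14.5 ± 0.542 FPKM in KO1, 18.7 ± 0.764 in KO2 and 34.9 ± 2.45 in WT. CD7 was at 90.0 ± 10.9 FPKM in KO1, 89.0 ± 1.18 in KO2 and 49.7 ± 5.09 in WT, and the kinase gene LCK fell by 0.56 in KO1 and by 0.41 in KO2 on the log2 scale. The part of any shift in cell state in the values of the circuit genes was not tested.

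Genes whose profile over the 9 libraries came closest to that of TAL1 were sought among 8717 tested genes at a mean of 5 FPKM or more, by the root mean square difference of log2(FPKM + 1) from the WT mean. Among the nearest were TRIM52-AS1, QSOX2, RABGAP1 and UBE2C, at differences of 0.0365 to 0.0871. TRIM52-AS1 is an antisense RNA gene, and its reads may be shared with an overlapping gene because the use of strand is not stated. QSOX2 and RABGAP1 lie on chromosome 9, and TAL1 on chromosome 1. UBE2C, at 41.9 FPKM in KO1, 59.4 in KO2 and 69.8 in WT on average, was the most abundant of these. For LYL1 the 5 nearest were APLP2, TIGD2, CIRBP, EPDR1 and AFAP1, at differences of 0.0812 to 0.103. By this choice they shared the order of LYL1 on average, with KO1 above KO2 and KO2 above WT. These are the closest of many genes, and the measure was not tested.

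Genes next to the members in RefSeq order were set beside them. The 3 nearest tested protein-coding genes on each side were taken for each member. Beside MYB, BCLAF1, a factor of transcription and RNA processing, rose by 0.91 and 0.67 on the log2 scale in KO1 and KO2, close in size to MYB, while HBS1L, the adjacent gene, fell by 0.17 in KO1 and by 0.30 in KO2. Beside LMO1, PPFIBP2 rose by 2.02 and 1.37 and TUB by 0.82 and 0.76, while EIF3F, which lies between them in this order, fell by 0.41 in KO1 and by 0.46 in KO2. PPFIBP2, at 4.44 FPKM in KO1, 2.48 in KO2 and 0.348 in WT on average, passed the filter through the edited lines, which fixed its direction. Beside TCF12, ADAM10 rose by 0.86 in KO1 and was at -0.11 in KO2 (adjusted p = 0.090, and 0.043 without WT replicate 2), with a called difference of -0.97 in KO2 against KO1. Beside LYL1, NFIX, a nuclear factor, rose by 0.71 and 0.62 and TRMT1 by 0.40 and 0.53. Across the 6 neighbours of TAL1, KO1 had 1 higher and 3 lower, and KO2 had 3 of each. Of all tested genes, 67.5% were called in KO1 and 64.7% in KO2. MOB3C, 1 of the neighbours lower in KO2 (-0.24, adjusted p = 0.034), lost its call under 6 other settings, with adjusted p of up to 0.13.

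**Figure D5:**
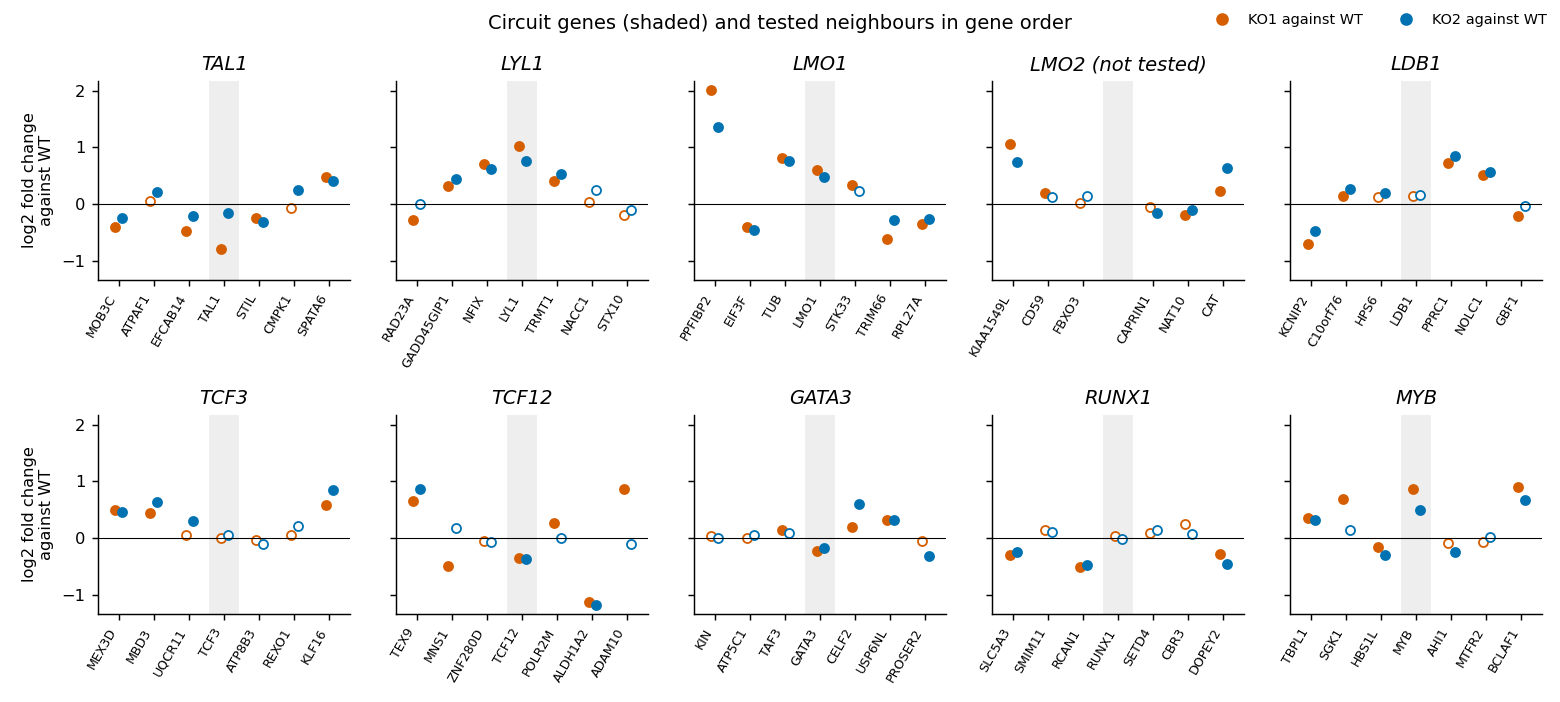
Log2 fold change against WT on the log2(FPKM + 1) scale of each circuit member (shaded place) and of the 3 nearest tested protein-coding genes on each side in RefSeq order, for KO1 and KO2, with filled points at an adjusted p under 0.05 (n = 3 libraries per group); the horizontal axis is gene order, not distance. LMO2 has no point because it was not tested, and TAL1 in KO1 lies below all 6 of its neighbours.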

How the data were processed

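RNA of the 9 libraries was prepared with the KAPA mRNA HyperPrep kit, per the labels' protocols. The authors deposited 1 table of FPKM values with a column per library. Per the submitters' processing notes, the build was hg19 and the tools were Cufflinks 2.2.1, STAR 2.5.0b and bedtools 2.7.0, with no role stated. The annotation, like the strandedness of counting, is not given in the sources used here, so antisense and overlapping genes may share reads. Of 26228 rows, 38 held text and were left out. FPKM carry no read totals, so depth is unknown and no counting interval is given. Libraries are described as biological replicates of each line, so p-values measure the spread between cultures of 1 line.

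Genes at 1 FPKM or more in at least 3 of 9 libraries were kept (11737). The model was run in limma 3.58.1 (R 4.3.3) on log2(FPKM + 1) of all 9 libraries, fitting a mean for each group with a mean-variance trend, no covariates and Benjamini-Hochberg adjustment. No count model was used. The fit was tested on simulated data. Pearson correlations of libraries were 0.989 to 0.993 within groups, 0.931 to 0.953 between edited and WT lines and 0.975 to 0.982 between edited lines. Members and gene lists were chosen with earlier results of these data known. Named genes were the members, up to 4 genes per list that passed in both lines with the largest mean change, up to 2 of at least 20 FPKM that passed in none, the 5 nearest profiles to TAL1 and LYL1 (1 of them is not reported here), and the 3 neighbours on each side. RAG2, MYBL2, CDKN1A, ERG, CD34, MEF2C, untested genes and single neighbours were named after their values were seen. RefSeq promoter sequences (GRCh38.p14) matched 9 of 10 members by symbol. The alternatives were leaving out each library, a replicate block, median centring, quantile normalization, a pseudocount of 0.1 or 0.5, no filter or one at 5 FPKM, fits of the compared groups, no trend and robust moderation.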

Additional observations from a re-analysis of the deposited data

Results flagged for a closer look

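Several genes differed between the edited lines in their change against WT, by the test of the difference itself (KO2 against KO1, adjusted p under 0.05). Among the members, the log2 fold change against WT in KO2 less that in KO1 was 0.65 for TAL1 and -0.37 for MYB. Among the paralogues and partners it was -0.75 for GATA2, 0.43 for RUNX2 and 0.17 for CBFA2T3. GATA2 passed the filter on low values only with KO1 libraries, which favoured a lower value in KO2. Of the 17 partners and corepressors, 1 was higher and 5 were lower in KO2 against KO1, or 35.3% called, beside 30.6% of all tested genes. Among the ID genes it was -0.66 for ID1 and -0.27 for ID3. Among reported targets it was -0.90 for KIT, 0.61 for GIMAP2, 0.38 for TRIB2, 0.35 for DNTT, -0.86 for CD4 and -0.42 for RAG1. For HHEX, a gene of LMO2 and LYL1 leukaemias, it was -1.16. Among cell type markers it was 0.35 for CD5, -4.10 for CD2, 0.15 for LCK and -1.34 for CD79A. The differences of ID3 and LCK lost their call when some single libraries were left out, with adjusted p of up to 0.13 and 0.084.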

How the results depend on the processing

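Counts of called members and of all called genes stayed within 1.5 times their reported values under all 19 settings, and no called value changed sign. The count of called members was 5 to 6 in KO1 against WT and in KO2 against WT and 2 to 3 in KO2 against KO1 under the other settings, and 6 to 7, 5 to 7 and 2 to 3 when each library was left out in turn. All called genes then numbered 7339 to 7935, 6869 to 7741 and 2643 to 4081. Of 510 values for single members, 498 kept their call status, 3 lost a call (GATA3) and 9 gained one (LYL1 and LDB1). Uncalled values near 0 crossed it under some settings, as for RUNX1 in KO1 against WT (-0.01 to 0.08) and TCF3 in KO1 against WT (-0.06 to 0.08). LYL1 has no value with a filter at 5 FPKM, which also cut the tested LMO2 and LYL1 leukaemia genes to 1.

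Libraries with the same replicate number did not deviate together: their correlations ran from -0.287 to 0.318, beside -0.266 to 0.343 for other pairs. With a replicate block 6, 6 and 3 members were called in the 3 comparisons, LYL1 joining in KO2 against KO1 (adjusted p = 0.034), and 7694, 7339 and 3135 genes in all.

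The unknown depth limits what can be said of genes near or under 1 FPKM, such as LMO2 and LYL1 in WT.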
